A study of Mus musculus with 12 samples.

Results

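Small nucleolar RNA host transcripts are long RNAs whose introns carry small nucleolar RNAs (snoRNAs). The group described here has 10 noncoding hosts, Gas5, Snhg1, Snhg3, Snhg5, Snhg6, Snhg8, Snhg12, Snhg15, Zfas1 and 2410006H16Rik, among the 37583 genes of the deposited count tables. They were proposed with the knockout against wild type results of these same clones in view, so their values in that contrast are given as a description, and the counts of hosts called in it are printed only beside the share over all genes. Gene identifiers were matched to the symbols through GENCODE mouse release M21. Of the 10 hosts, 6 had a matched entry, and 5 passed the filter on low counts that left 11819 genes for testing: Gas5, Zfas1, 2410006H16Rik, Snhg15 and Snhg12. Snhg3 had an entry but almost no reads, and Snhg1, Snhg5, Snhg6 and Snhg8 had no matched entry and were not analysed here. For these the M21 identifier was missing from the count tables, and earlier identifiers could not be looked up. A missing match therefore does not show that a host was left out of the counts. Here and below, an entry means one matched through M21.

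The cells were conditionally immortalized granulocyte-monocyte progenitors (GMPs), the myeloid precursors of neutrophils and monocytes, derived from fetal liver of C57BL/6 mice at embryonic day 15.5. RNA was sequenced from 6 Taz knockout clones (KO) and 6 wildtype clones (WT), Taz being the older symbol of Tafazzin, the enzyme that remodels the mitochondrial lipid cardiolipin. Every clone of both genotypes carried retroviral ER-Hoxb8, an estrogen-receptor fusion of the transcription factor Hoxb8 that blocks differentiation while estradiol is present, and was cultured in 10% serum with 0.5 µM beta-estradiol and medium holding about 50 ng/ml stem cell factor. Each library is one culture grown from 1 cell, and its title carries a number before the clone letter, 3 and 4 in KO and 1 and 2 in WT, with 3 clones to a number. What this number marks, and which clones came from separate embryos, is not given in the labels, so the p-values measure the spread between clones and may rest on fewer independent sources than 12.

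In the nucleus a snoRNA is cut out of the intron of its spliced host. Box C/D snoRNAs guide ribose methylation of ribosomal RNA and box H/ACA snoRNAs guide its pseudouridylation. The host exons that remain are ligated and exported, and in several hosts, Gas5 among them, they have short open reading frames whose translation leads to nonsense-mediated decay of the RNA. Many hosts start at a terminal oligopyrimidine tract, the pyrimidine-rich start also found on ribosomal protein mRNAs, and blocked translation is known to raise the level of such spliced hosts.

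The snoRNAs themselves show what these transcripts carry, and their counts are given further on. The sequences were read by position from GRCm38, the build of GENCODE M21, which is not the mm9 build of the counts. In box C/D snoRNAs the capitals mark the box C letters TGATGA and the box D letters CTGA, and in box H/ACA snoRNAs they mark the ACA near the end. The 3 snoRNAs of 2410006H16Rik are shown because they are the one set of several snoRNAs in which every member had reads, and 1 snoRNA is shown for each of the other 4 measured hosts. Those 4, Snord47, Snord12, Snora9 and Snora61, had 0 counts in every clone. The snoRNAs of Zfas1 and Snhg12 that did have reads, Gm23201 and Snora16a, are not shown. Snord49a lies at chr11:62603450-62603521, Snord49b at chr11:62603079-62603150 and Snord65 at chr11:62604515-62604586, all on the plus strand inside 2410006H16Rik. Snord47 lies at chr1:161038082-161038158 on the plus strand in Gas5, Snord12 at chr2:167065276-167065365 on the plus strand in Zfas1, Snora9 at chr11:6528033-6528165 on the minus strand in Snhg15, and Snora61 at chr4:132310240-132310369 on the plus strand in Snhg12.
Snord49a: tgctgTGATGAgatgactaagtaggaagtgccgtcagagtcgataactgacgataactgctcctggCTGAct
Snord49b: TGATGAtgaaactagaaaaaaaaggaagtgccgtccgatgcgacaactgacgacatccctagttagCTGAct
Snord65: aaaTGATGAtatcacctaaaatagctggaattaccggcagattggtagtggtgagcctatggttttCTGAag
Snord47: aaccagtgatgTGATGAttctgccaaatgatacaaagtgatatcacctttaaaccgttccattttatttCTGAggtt
Snord12: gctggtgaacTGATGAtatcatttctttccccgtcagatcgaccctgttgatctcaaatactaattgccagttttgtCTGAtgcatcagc
Snora9: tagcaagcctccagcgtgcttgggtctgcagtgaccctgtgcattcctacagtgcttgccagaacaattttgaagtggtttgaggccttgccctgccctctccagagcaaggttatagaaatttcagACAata
Snora61: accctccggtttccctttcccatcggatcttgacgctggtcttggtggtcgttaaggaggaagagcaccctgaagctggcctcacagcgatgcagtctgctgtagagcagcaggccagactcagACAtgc

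The start regions of the hosts are shown next, because a shared start sequence is what is known to tie such hosts to ribosomal protein genes. RefSeq sequence (GRCm38.p6) was matched for 9 of the 10 hosts and gave 10 start regions, Gas5 having more than 1. Each stretch runs from 60 bases before to 50 bases after the annotated start, and the capitals mark runs of at least 5 C or T that open with C between 10 bases before and 30 bases after the start. The regions shown belong to the 5 hosts with tested counts: 2410006H16Rik at chr11:62602817-62602926 on the plus strand, the second start of Gas5 at chr1:161035106-161035215 on the plus strand, Snhg12 at chr4:132308618-132308727 on the plus strand, Zfas1 at chr2:167062874-167062983 on the plus strand, and Snhg15 at chr11:6528711-6528820 on the minus strand.
2410006H16Rik: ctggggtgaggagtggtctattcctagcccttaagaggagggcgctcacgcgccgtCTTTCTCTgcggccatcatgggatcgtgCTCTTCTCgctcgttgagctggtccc
Gas5, second start: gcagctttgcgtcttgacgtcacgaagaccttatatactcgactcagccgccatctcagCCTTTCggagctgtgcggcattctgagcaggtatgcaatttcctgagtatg
Snhg12: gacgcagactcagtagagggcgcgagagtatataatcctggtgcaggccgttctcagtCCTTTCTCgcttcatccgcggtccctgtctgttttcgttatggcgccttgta
Zfas1: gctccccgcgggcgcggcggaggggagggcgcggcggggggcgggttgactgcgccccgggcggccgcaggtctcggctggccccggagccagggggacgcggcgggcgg
Snhg15: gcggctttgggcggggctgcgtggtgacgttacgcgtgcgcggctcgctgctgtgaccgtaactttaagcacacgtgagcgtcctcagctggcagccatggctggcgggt

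A run of this kind was present in 6 of the 10 host start regions, against 45% of all 32851 RefSeq start regions. A similar search on the other strand found 2 of 10 against 51.1%. It saw only the bases where a run may open and cut runs at their edges, so 45% and 51.1% are not like for like. In Gas5 the run CCTTTC opened 1 base before the second annotated start, in Snhg12 CCTTTCTC opened 2 bases before it, and in 2410006H16Rik CTTTCTCT opened 4 bases before it. The first annotated start of Gas5, at chr1:161034541-161034650, held no such run, nor did the windows of Zfas1, Snhg15 and Snhg1. Further letters were looked up on both strands over 250 bases before to 50 bases after the start, none of which contains another. CACGTG was in 1 host region, that of Snhg15, against 7.15% of all regions. TGATGNAA was in 0 of 10 against 3.97%, and TATAA was in 6 of 10 against 24.9%. TGACGTCA was in 2 of 10, the second Gas5 start and Snhg15, against 1.79%. These motifs were chosen after the sequences and the values had been seen, and a match describes letters, not a used start or a bound site.

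Gene counts summed to between 18970252 and 23658158 in the KO clones and between 21966954 and 27431544 in the WT clones. Levels are given as CPM, the usual scaling of counts by library size, after TMM, a correction of the library sizes computed over all genes. Exceptions are the summed markers, the snoRNAs inside hosts and the limit for a count of 0. Their CPM rests on library totals without TMM. Taz was measured at 2.21 to 4.08 CPM in KO and 37.1 to 43.9 CPM in WT, and no clone went against its label. The 10 GMP markers, among them Mpo, Prtn3 and Kit, were all tested, all with at least 2310 counts in every clone, and none passed the test between genotypes. Mature neutrophil markers summed to between 15.9 and 145 CPM in KO and between 22.3 and 1524 CPM in WT, where clone 2D held 1524 and the other 5 at most 115. Lymphoid markers summed to between 6.38 and 30.5 CPM in KO and between 34.2 and 86.7 CPM in WT. Of 6 tested, 2 passed as lower in KO, against 3.94% of all tested genes, and Cd3e was at 0 everywhere. Fetal hepatocyte markers summed to 149 CPM in KO clone 3G, mainly Alb, and to at most 1.95 CPM in the other 11 clones, with Serpina1a at 0. In bulk libraries fewer cells of a type and less RNA per cell cannot be told apart.

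All 5 measured hosts averaged higher in KO clones than in WT clones, by between 11% and 46%. The difference was greatest for 2410006H16Rik and Gas5, whose genotypes did not overlap, and smaller for Zfas1, Snhg15 and Snhg12, whose genotypes did. In each of the 5 hosts, all 6 KO clones lay above the WT mean. At an adjusted p under 0.05 in edgeR's quasi-likelihood test over all genes, 2 of the 5 hosts were called, both higher in KO. Across all 11819 genes 7.94% were called, 3.99% as higher in KO and 3.94% as lower. DESeq2 called 4 of the 5 and 13.7% of its genes, and a fit to counts summed by title number called 1 of the 5 and 1.99% of its genes. Because the hosts were chosen on this contrast, nothing is read from their share of calls or from where their KO clones lay. The share of all genes with all 6 KO clones above the WT mean was not computed.

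**Figure D1:**
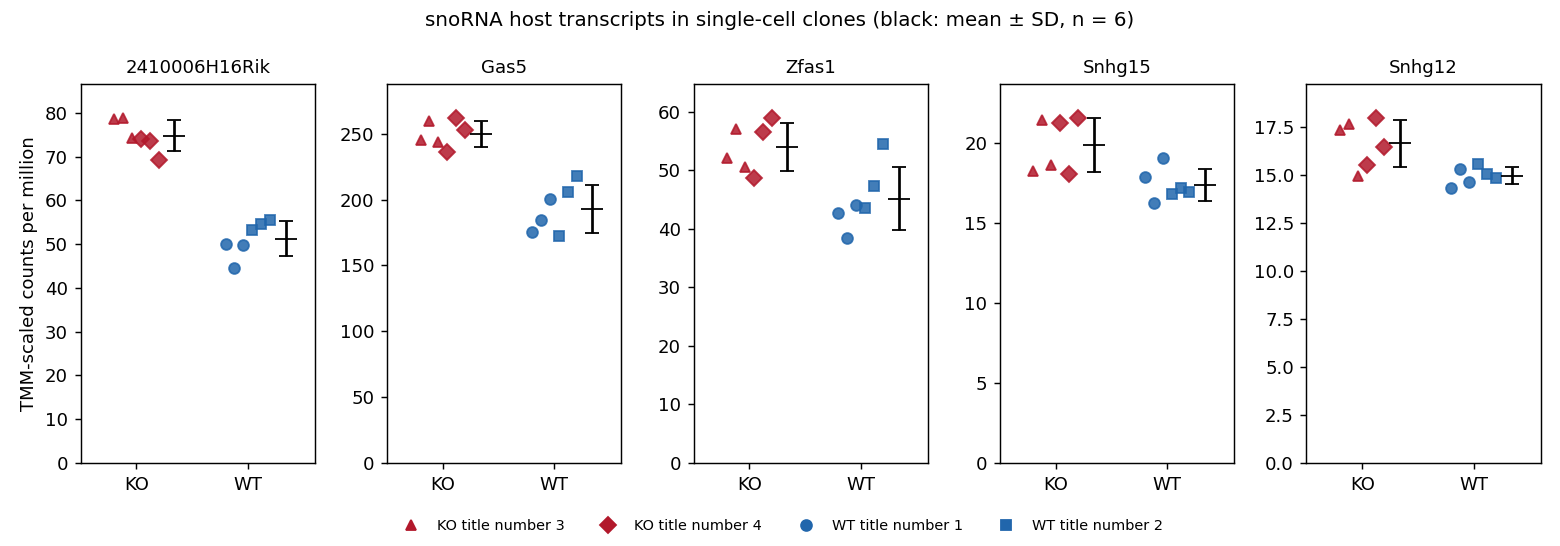
TMM-scaled CPM (y axes, each from 0) of the 5 measured snoRNA hosts in 6 KO and 6 WT clones; symbols show the title number, and the black bars the mean ± SD (n = 6). For 2410006H16Rik and Gas5 every KO clone lies above every WT clone, while for Zfas1, Snhg15 and Snhg12 the genotypes overlap.

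2410006H16Rik (ENSMUSG00000086841, chromosome 11), the host of the box C/D snoRNAs Snord49a, Snord49b and Snord65, had the greatest difference of the 5. It stood at 78.6, 78.8 and 74.3 CPM in KO clones 3G, 3H and 3I and at 73.9, 73.7 and 69.3 CPM in KO clones 4J, 4K and 4L. In the WT clones it stood at 49.9, 44.6 and 49.9 CPM in 1A, 1B and 1C and at 53.2, 54.6 and 55.5 CPM in 2D, 2E and 2F. The lowest KO clone, 4L, was therefore above the highest WT clone, 2F. The means were 74.8 ± 3.54 CPM in KO and 51.3 ± 4.02 CPM in WT (SD, n = 6 each), a log2 fold change of 0.54 (SE 0.05). The values rest on 1093 to 1748 counts per clone. With any 1 clone left out the log2 fold change lay between 0.50 and 0.57.

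Gas5 (ENSMUSG00000053332, chromosome 1) hosts a string of box C/D snoRNAs and takes its name from growth arrest, during which it accumulates. It stood at 245, 259 and 244 CPM in KO clones 3G, 3H and 3I and at 236, 262 and 253 CPM in KO clones 4J, 4K and 4L. In the WT clones it stood at 175, 184 and 200.3 CPM in 1A, 1B and 1C and at 172, 206 and 218 CPM in 2D, 2E and 2F. The genotypes did not overlap, and the KO clones lay closer together than the WT clones, with a coefficient of variation of 3.94% in KO and 9.53% in WT. The same coefficient had a median of 8.81% in KO and 11.4% in WT over all tested genes, and of 6.78% in KO and 8.88% in WT over the 8865 genes whose log2 CPM averaged 3 or more, Gas5 among them. The means were 249.9 ± 9.85 CPM in KO and 193 ± 18.4 CPM in WT (SD, n = 6 each), a log2 fold change of 0.37 (SE 0.06). It lay between 0.35 and 0.42 with any 1 clone left out.

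Among all tested genes, every KO clone lay above every WT clone in 2.54% and below every WT clone in 2.84%. The 2 hosts without overlap are a description beside these shares, for the same reason.

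Zfas1 (ENSMUSG00000074578, chromosome 2), the transcript antisense to the start of Znfx1 and host of Snord12, was measured at 52.0, 57.0 and 50.6 CPM in KO clones 3G, 3H and 3I and at 48.7, 56.5 and 58.9 CPM in 4J, 4K and 4L. In the WT clones it was at 42.7, 38.5 and 44.1 CPM in 1A, 1B and 1C and at 43.5, 47.3 and 54.5 CPM in 2D, 2E and 2F. WT clone 2F reached into the KO range, and 3 KO clones lay above it. The means were 53.9 ± 4.07 CPM in KO and 45.1 ± 5.40 CPM in WT (SD, n = 6 each), a log2 fold change of 0.26 (SE 0.08). Without clone 2F the log2 fold change was 0.32, and without WT clone 1B, the lowest of all 12, it was 0.21.

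Snhg15 (ENSMUSG00000085156, chromosome 11), the host of the box H/ACA snoRNA Snora9, ranged from 18.1 to 21.6 CPM in KO and from 16.2 to 19.1 CPM in WT. KO clones 3H, 4J and 4L lay above all WT clones, while 3G, 3I and 4K lay within the WT range. The means were 19.9 ± 1.70 CPM in KO and 17.4 ± 1.00 CPM in WT (SD, n = 6 each), a log2 fold change of 0.20 (SE 0.07). Its 347 to 500 counts per clone carry a counting error of up to 5.37%.

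Snhg12 (ENSMUSG00000086290, chromosome 4) hosts both kinds of snoRNA, box C/D Snord99 and the box H/ACA RNAs Snora16a, Snora44 and Snora61. It ranged from 15.0 to 17.9 CPM in KO and from 14.3 to 15.6 CPM in WT. KO clones 3G, 3H, 4K and 4L lay above all WT clones, and 3I and 4J within the WT range. The means were 16.6 ± 1.21 CPM in KO and 14.9 ± 0.441 CPM in WT (SD, n = 6 each), a log2 fold change of 0.15 (SE 0.06), the smallest of the 5.

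Snhg3 (ENSMUSG00000085241, chromosome 4) had 0 counts in all 6 KO clones. In WT it had 1 count in clone 1A, 1 in clone 1B and 0 in the other 4. A count of 0 allows up to 3 counts, or 0.112 to 0.158 CPM across the clones with 0 counts, a limit that covers counting error only. In GENCODE M21 the gene lies within the span of Rcc1 on the same strand, and whether reads were lost to that overlap was not tested. Rcc1, the nucleotide exchange factor of the GTPase Ran, averaged 194.9 ± 10.4 CPM in KO and 195.7 ± 19.4 CPM in WT (SD, n = 6 each; log2 fold change -0.01, edgeR adjusted p = 0.972).

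Compared per kilobase of exon, 2410006H16Rik was the most abundant host, at 162 ± 7.66 CPM per kb in KO and 111 ± 8.70 CPM per kb in WT (SD, n = 6 each), over the union of all M21 exons. Gas5 followed at 66.5 ± 2.62 CPM per kb in KO and 51.3 ± 4.88 in WT, Zfas1 at 18.4 ± 1.39 in KO and 15.4 ± 1.84 in WT, and Snhg15 at 14.6 ± 1.25 in KO and 12.8 ± 0.737 in WT. Snhg12 was lowest at 6.93 ± 0.505 CPM per kb in KO and 6.22 ± 0.184 in WT. The order depends on the transcript models. Over the exons of M21's basic set, which is much shorter for Gas5, Gas5 came first at 294 CPM per kb in KO and 227 in WT, ahead of 2410006H16Rik at the same 162 and 111. The exon union of Gas5 was 3.76 kb over all models and 0.851 kb over the basic set, and which models the counting used is not given in the sources used here.

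The overlap of hosts with genes on the opposite strand matters because reads were counted without strand. Zbtb37, a zinc finger gene, shares 428 bases with Gas5 in M21 and averaged 5.52 ± 0.322 CPM in KO and 4.77 ± 0.623 CPM in WT (SD, n = 6 each; log2 fold change 0.21, edgeR adjusted p = 0.237). Znfx1, a helicase gene, shares 82 bases with Zfas1 and averaged 29.9 ± 2.87 CPM in KO and 28.7 ± 4.84 CPM in WT (log2 fold change 0.06, edgeR adjusted p = 0.773). Neither passed the test. 2410006H16Rik, Snhg15 and Snhg12 overlap no gene other than snoRNAs in that release.

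The size of the KO minus WT difference was recomputed for each pair of title numbers. For 2410006H16Rik the log2 fold change was 0.68 for number 3 minus 1, 0.50 for 3 minus 2, 0.59 for 4 minus 1 and 0.41 for 4 minus 2. For Gas5 it ran from 0.33 to 0.42, for Zfas1 from 0.13 to 0.39, for Snhg15 from 0.13 to 0.26 and for Snhg12 from 0.13 to 0.17. The 4 pairs of a host share clones with one another and were not tested. Without KO clone 3G, which held the hepatocyte RNA, the log2 fold changes were 0.53 for 2410006H16Rik, 0.38 for Gas5, 0.27 for Zfas1, 0.22 for Snhg15 and 0.14 for Snhg12. Without WT clone 2D, which held the neutrophil RNA, they were 0.56 for 2410006H16Rik, 0.35 for Gas5, 0.25 for Zfas1, 0.19 for Snhg15 and 0.17 for Snhg12. The part of the lymphoid RNA, which was higher in all WT clones than in any KO clone, was not tested.

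**Figure D2:**
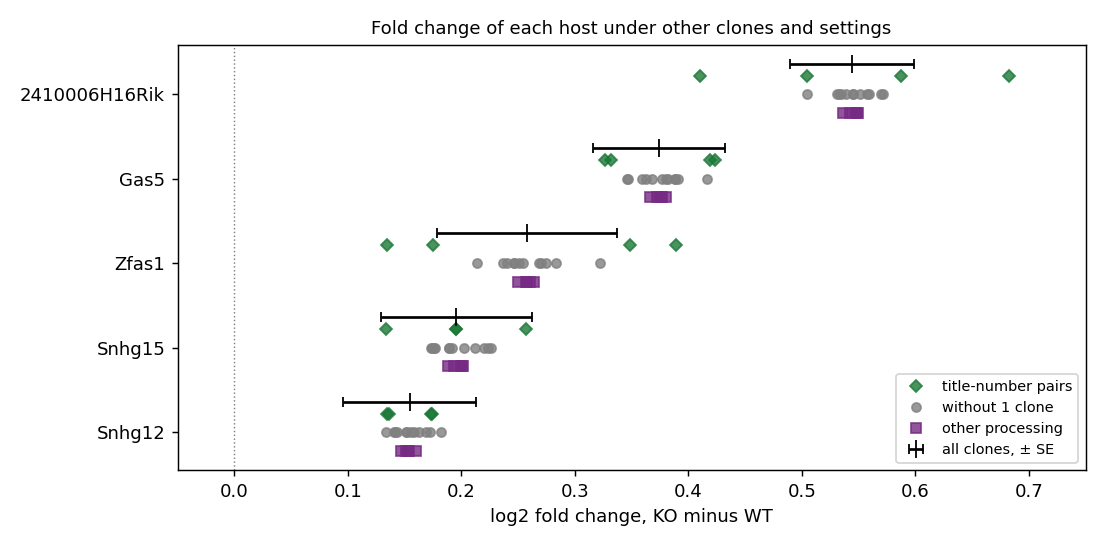
KO minus WT log2 fold change (x axis) of each host with all clones (black, ± SE), for each pair of title numbers (green), with 1 clone left out (grey) and under other processing (purple). All values lie above 0, and those of 2410006H16Rik spread from 0.41 to 0.68.

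Clones of the same genotype that carry different title numbers give a contrast on which the hosts were not chosen. In a fit with a mean for each title number, 0 of 11819 genes passed an adjusted p under 0.05 for number 4 minus 3 within KO, and 0 for number 2 minus 1 within WT, by edgeR's quasi-likelihood test. At an unadjusted p under 0.05 there were 244 genes within KO and 416 within WT, and DESeq2 called 4 and 11. None of the 5 hosts was called by either tool. The smallest unadjusted p within WT was that of 2410006H16Rik, at 54.4 ± 1.15 CPM for number 2 and 48.1 ± 3.06 CPM for number 1 (SD, n = 3 each). Its 3 clones of number 2 all lay above the 3 of number 1, with a log2 difference of 0.18 (SE 0.06, edgeR unadjusted p = 0.00969, adjusted p = 0.9999). Within KO it was at 72.3 ± 2.58 CPM for number 4 and 77.2 ± 2.57 CPM for number 3 (SD, n = 3 each), a log2 difference of -0.09 (SE 0.06, edgeR adjusted p = 0.9999). For Zfas1 the levels within WT were 48.4 ± 5.56 CPM for number 2 and 41.8 ± 2.93 CPM for number 1 (SD, n = 3 each), a log2 difference of 0.21 (SE 0.10, edgeR unadjusted p = 0.0620, adjusted p = 0.9999). The other log2 differences lay between -0.06 and 0.09. None of these misses shows that title numbers are alike.

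Whether the hosts varied together from clone to clone was examined within genotypes, on each clone's deviation from its genotype mean, which the choice of hosts did not use. Over the 10 pairs of hosts Pearson's r ranged from -0.27 to 0.77 with a median of 0.19, and 8 of 10 were positive. Gas5 and Zfas1 gave the highest value, r = 0.77 and Spearman's rho = 0.73 over 12 clones, with permutation p = 0.00681 and 0.00896 (two-sided, labels permuted within genotypes). Adjusted over the 10 pairs by Benjamini-Hochberg these became permutation p = 0.0681 and 0.0896, above the threshold of 0.05. The correlation was 0.88 among the KO clones and 0.76 among the WT clones, 0.76 on deviations from title-number means, and 0.72 without the 2 clones farthest from the median of Gas5. Ranked by likeness to Gas5 among all candidate genes, Zfas1 came in place 226. Zfas1 and 2410006H16Rik had r = 0.55 over the 12 clones (permutation p = 0.109, adjusted 0.543), with 0.87 among WT clones and -0.26 among KO clones. That relation rested on 2 clones and was -0.02 without them. Snhg15 and Snhg12 gave the lowest, r = -0.27 (permutation p = 0.469, adjusted 0.757).

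**Figure D3:**
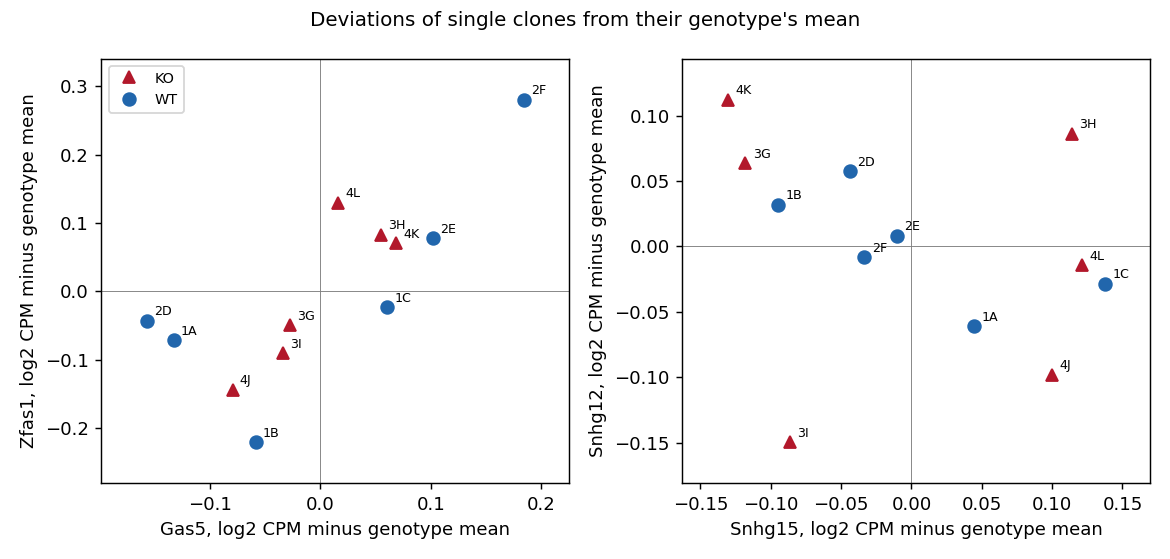
Each clone's log2 CPM minus the mean of its genotype, KO as red triangles and WT as blue circles, for Gas5 (x axis) against Zfas1 (y axis) on the left and Snhg15 against Snhg12 on the right. Clones high in Gas5 tend to be high in Zfas1 (r = 0.77), while no such slope is seen on the right (r = -0.27).

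By the same measure, over 12 clones and 8864 candidate genes whose log2 CPM averaged 3 or more, the genes most like each host were none of the other hosts. For Gas5 they were Dcaf8, a substrate receptor of CUL4 ubiquitin ligases (r = 0.93), and Chd2, a chromatin remodeller (r = 0.92). For 2410006H16Rik they were Pde7a, a cyclic nucleotide phosphodiesterase (r = 0.87), and Hnrnph3, an RNA-binding protein (r = 0.85). For Zfas1 they were Rfwd3 and Rnaseh2a, which act in DNA repair and in RNA removal from DNA (r = 0.87 each). For Snhg15 they were Ufd1 and Map2k4 (r = 0.89 and 0.84), and for Snhg12 Trnau1ap and Rnf216 (r = 0.87 each). As the top of so many genes over only 12 clones, these values are a description only.

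Few reads were assigned to the snoRNAs that the hosts carry. GENCODE M21 places 36 snoRNA entries inside the 10 hosts, of which 32 had an entry in the count tables and 25 had 0 counts in every clone, among them all 9 of Gas5 and all 8 of Snhg1. Of the 7 with counts, 6 passed the filter. None of the 6 was called in KO against WT by edgeR or by DESeq2, and none had an unadjusted p under 0.05. Snord49a, carried by 2410006H16Rik, averaged 1.07 ± 0.248 CPM in KO and 0.780 ± 0.216 CPM in WT (SD, n = 6 each) on 13 to 27 counts per clone, a log2 fold change of 0.45 (SE 0.22, edgeR unadjusted p = 0.0632, adjusted p = 0.241). Snord65 of the same host averaged 0.646 ± 0.168 CPM in KO and 0.505 ± 0.110 CPM in WT (log2 fold change 0.35, SE 0.22, edgeR adjusted p = 0.365). Snord49b, the remaining snoRNA of that host, had 1 to 12 counts per clone and did not pass the filter. Its counts summed to 21 over the 6 KO clones and 33 over the 6 WT clones. It averaged 0.162 ± 0.0952 CPM in KO and 0.223 ± 0.144 CPM in WT (SD, n = 6 each). The differences of the 2 tested snoRNAs of this host could not be told from 0. Snord49b averaged lower in KO, but its counts are too low to read a direction from them. Gm23201, inside Zfas1, averaged 0.871 ± 0.344 CPM in KO and 0.794 ± 0.201 CPM in WT (log2 fold change 0.14, SE 0.29, edgeR adjusted p = 0.822).

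Entries of snoRNAs also existed for hosts that themselves had no matched entry. Snora24, inside Snhg8, averaged 1.17 ± 0.161 CPM in KO and 1.03 ± 0.163 CPM in WT (SD, n = 6 each; log2 fold change 0.18, SE 0.15, edgeR adjusted p = 0.533). Snord87 inside Snhg6 gave a log2 fold change of 0.09 (edgeR adjusted p = 0.886). Snora16a lies inside Snhg12, a measured host, and gave a log2 fold change of 0.12 (edgeR adjusted p = 0.857). Reads of unspliced hosts can fall on a snoRNA entry, and short RNAs are known to be lost in column purification, which was used here. Their part in these values was not tested, and mature snoRNAs were not measured. How reads lying on both a host exon and a snoRNA were assigned was not tested either. A count of 0 thus describes reads assigned to an entry and does not show that its RNA was absent.

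Genes that share the snoRNA pathway with these hosts were taken from lists drawn up from general knowledge with earlier results of these data known. Their medians can be read beside that of all tested genes, whose median log2 fold change was -0.01, with 48.3% above 0. Of the 11819 tested genes, 2806 had an unadjusted edgeR p under 0.05 in this contrast, the background for the unadjusted counts below. The median of the 5 hosts was 0.26, which their choice on this contrast favours.

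Other noncoding hosts showed no call. Of 16 listed, 7 had an entry and 3 were tested, with 0 called in either direction by edgeR, 2 at an unadjusted p under 0.05, 1 called by DESeq2, and a median log2 fold change of 0.18. Snhg17 averaged 18.6 ± 1.41 CPM in KO and 16.4 ± 0.515 CPM in WT (SD, n = 6 each; log2 fold change 0.18, edgeR adjusted p = 0.0771), and it was the one DESeq2 called. Snhg20 averaged 5.73 ± 0.660 CPM in KO and 4.53 ± 0.973 CPM in WT (log2 fold change 0.34, edgeR adjusted p = 0.190). Epb41l4aos averaged 8.86 ± 1.16 CPM in KO and 9.09 ± 1.12 CPM in WT (log2 fold change -0.04, edgeR adjusted p = 0.877).

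Ribosomal protein genes that carry snoRNAs were the list with most calls. Of 23 tested, 9 rose in KO and 0 fell, against 3.99% and 3.94% of all genes, and 21 of the 23 had a positive log2 fold change, with a median of 0.12. Rps20, of the small ribosomal subunit, averaged 325 ± 12.2 CPM in KO and 279 ± 10.1 CPM in WT (SD, n = 6 each; log2 fold change 0.22, edgeR adjusted p = 0.00296). Rpl13a, of the large subunit and host of several box C/D snoRNAs, averaged 1155 ± 51.9 CPM in KO and 1011 ± 41.4 CPM in WT (log2 fold change 0.19, edgeR adjusted p = 0.0124). Rpl4 averaged 2750.3 ± 111 CPM in KO and 2443 ± 92.1 CPM in WT (log2 fold change 0.17, edgeR adjusted p = 0.0167). For these 3 genes every KO clone lay above every WT clone. Rplp2, a protein of the ribosomal stalk, averaged 384 ± 17.0 CPM in KO and 340.2 ± 16.4 CPM in WT (log2 fold change 0.18, edgeR adjusted p = 0.0201), and its adjusted p reached 0.0541 with 1 clone left out. Without WT clone 1A or 1B 3 of the 23 were called, and without KO clone 3I 5. With counts summed by title number 0 of the 23 were called, and with no filter on low counts 2. Reads shared with processed pseudogenes are missing from such genes, since reads with several places in the genome were not assigned to genes.

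Other protein-coding hosts were divided. Of 28 tested, 5 rose in KO and 1 fell, against 3.99% and 3.94% of all genes. The median log2 fold change was 0.02. The one that fell was Snrpb, a core protein of spliceosomal particles, at 321 ± 7.39 CPM in KO and 360.4 ± 7.31 CPM in WT (SD, n = 6 each; log2 fold change -0.17, edgeR adjusted p = 0.00244), with every KO clone below every WT clone. Rack1, a scaffold protein of the small ribosomal subunit, averaged 2620 ± 120 CPM in KO and 2249 ± 74.2 CPM in WT (log2 fold change 0.22, edgeR adjusted p = 0.00508). Hspa9, the mitochondrial chaperone mortalin, averaged 1267 ± 90.4 CPM in KO and 996 ± 109 CPM in WT (log2 fold change 0.35, edgeR adjusted p = 0.0147). Eef2, the elongation factor that moves the ribosome along the mRNA, averaged 5040 ± 252 CPM in KO and 4238 ± 302 CPM in WT (log2 fold change 0.25, edgeR adjusted p = 0.0148). These 4 genes were called with each of the 12 clones left out in turn, while with counts summed by title number 0 of the 28 were called.

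The proteins that assemble and form snoRNA particles gave no call in edgeR. Of 19 tested, 0 were called, and 2 had an unadjusted p under 0.05, against 2806 of all 11819 genes. DESeq2 called 1 higher and 1 lower in KO. Nop10, a core protein of box H/ACA particles, averaged 169 ± 7.17 CPM in KO and 185 ± 10.9 CPM in WT (SD, n = 6 each; log2 fold change -0.13, edgeR adjusted p = 0.0948). Dkc1, the pseudouridine synthase of the same particles, averaged 345 ± 13.2 CPM in KO and 323 ± 11.3 CPM in WT (log2 fold change 0.10, edgeR adjusted p = 0.0954). Tgs1, which methylates the caps of small RNAs, had a log2 fold change of -0.13 (edgeR adjusted p = 0.251), and so did Ruvbl1, an ATPase of particle assembly (adjusted p = 0.299). The list median was -0.03.

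The factors of nonsense-mediated decay, the route known to remove several spliced hosts, gave no call in edgeR either. Of 23 tested, 0 were called, and 4 had an unadjusted p under 0.05, against 2806 of all 11819 genes. DESeq2 called 1 higher and 1 lower in KO. Upf3b, which links exon junctions to the decay factors, averaged 58.9 ± 3.07 CPM in KO and 64.8 ± 2.44 CPM in WT (SD, n = 6 each; log2 fold change -0.14, edgeR adjusted p = 0.0610). Magohb, of the exon junction complex, and Smg1, the kinase of Upf1, had log2 fold changes of 0.20 and 0.15 (edgeR adjusted p = 0.137 and 0.202). The list median was -0.01. RNA levels of these factors say nothing of decay activity, which was not measured.

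Long noncoding RNAs that carry no snoRNA were set beside the hosts. Of 19 listed, 9 had an entry and 7 were tested. Of these, 2 rose in KO and 0 fell, against 3.99% and 3.94% of all genes. The median log2 fold change was 0.24. Trp53cor1, a noncoding RNA known as a target of p53, averaged 13.0 ± 1.82 CPM in KO and 3.48 ± 0.971 CPM in WT (SD, n = 6 each; log2 fold change 1.91, edgeR adjusted p = 0.000336). Malat1, a nuclear-retained RNA of speckles, averaged 83.2 ± 10.1 CPM in KO and 59.4 ± 7.99 CPM in WT (log2 fold change 0.49, edgeR adjusted p = 0.0135). In both, every KO clone lay above every WT clone, and with counts summed by title number 1 of the 7 was called. Neat1, the scaffold RNA of paraspeckles, averaged 44.4 ± 9.56 CPM in KO and 34.2 ± 7.68 CPM in WT (log2 fold change 0.38, edgeR adjusted p = 0.196). Mir142hg, a microRNA host, had a log2 fold change of 0.24 (edgeR adjusted p = 0.526). Whether the snoRNA hosts differ from these RNAs was not tested, and with a median of 0.24 against 0.26 nothing is called particular to the hosts.

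**Figure D4:**
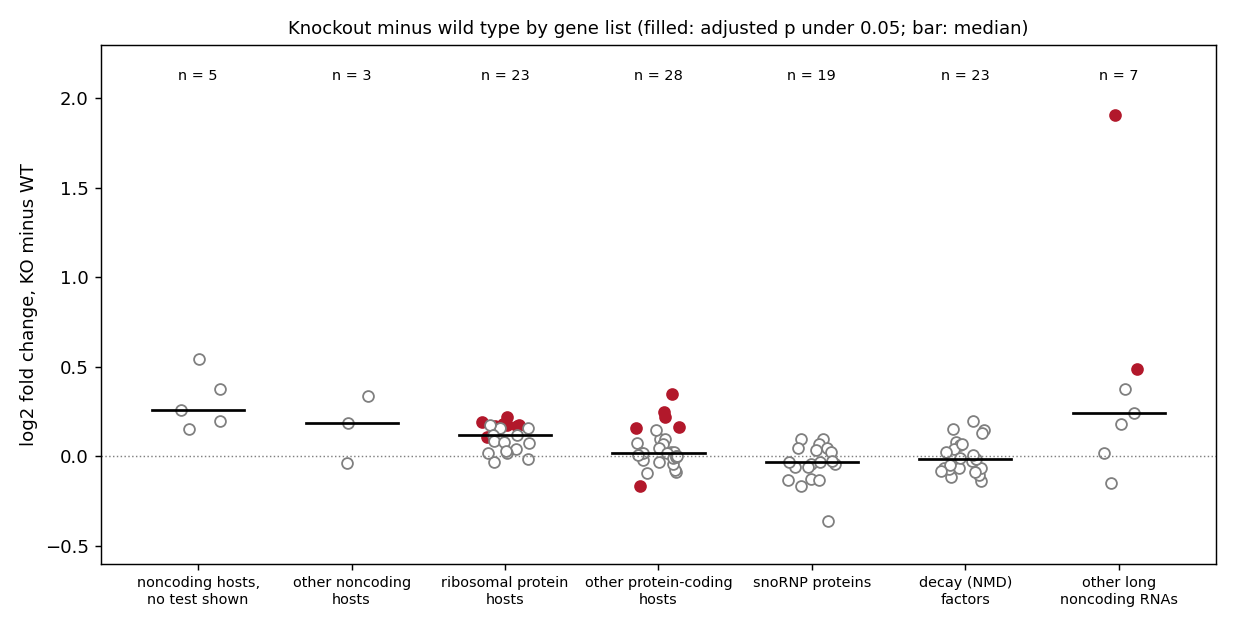
KO minus WT log2 fold change (y axis) of each tested gene in the 5 snoRNA hosts and in 6 other lists, with genes of the other lists at an edgeR adjusted p under 0.05 filled and the 5 hosts all drawn unfilled, the list median as a bar and the number of genes above. The median of the 5 hosts is 0.26, that of the ribosomal protein hosts 0.12 with 9 of 23 called, and those of the snoRNA particle proteins and decay factors lie near 0.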

How the data were processed

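Total RNA of 12 clones had been sequenced. Per the submitters' processing notes the authors used STAR, HTSeq and edgeR on build mm9, with versions not given in the sources used here. The deposited files held whole-number read counts by Ensembl identifier, 1 table per clone, counted without strand per the file names. The 5 HTSeq total lines, which name no gene, entered neither library sizes nor tests; of all records, 43.6% had several alignments, 3.55% lay outside genes and 1.59% were ambiguous. Identifiers were matched to symbols for 32860 of 37583 genes. Depth per clone is given with the results.

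Genes were filtered by filterByExpr of edgeR 4.0.16 (limma 3.58.1, R 4.3.3), scaled by TMM and tested with the quasi-likelihood F-test, with Benjamini-Hochberg adjustment over all 11819 genes and a threshold of 0.05. KO minus WT used 6 against 6 clones; title numbers were compared in 1 fit of 4 groups. Log2 CPM for correlations used a prior count of 2, and their p-values 100000 permutations within genotypes. Alternatives were DESeq2 1.42.0, library totals, upper-quartile factors, no filter, counts summed by title number, pairs of title numbers and leaving out each clone. No batch label is given, and replicate numbers are not shared between genotypes. Python 3.11.15 and matplotlib 3.10.9 made the sequence searches and figures.

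The members and lists were chosen with earlier results of these data known. Named genes were the hosts, Taz, up to 4 genes per list by smallest adjusted p, hosted snoRNAs by highest mean count, and the 2 genes most correlated with each host, with 1 gene that this rule names not reported here; Rcc1, Zbtb37, Znfx1 and the remaining snoRNAs with counts were added for their position. The assignment of snoRNAs to hosts by position, the motifs and the correlation tests were chosen after values had been seen. A shorter snoRNA list from general knowledge held 35 names, of which 17 had an entry, 5 were tested and 0 were called. Of the remaining marker lists, 0 macrophage, 0 erythroid and 0 mast cell genes were called, and 1 megakaryocyte and 1 neutrophil gene were lower in KO. The tests were tested on simulated counts of these clones. Changed genes were drawn from those whose mean CPM had a log2 of 3 or more, so genes at lower levels are not covered. In each comparison the 1.3-fold, 1.5-fold and 2-fold changes were given to 67, 67 and 66 genes. KO minus WT recovered 35.8%, 67.2% and 97.0% of these, in that order, over 11702 genes. The comparison within WT recovered 13.4%, 59.7% and 74.2% over 11726 genes, and that within KO 10.4%, 49.3% and 83.3% over 11707 genes. Most of these changes of 1.3-fold were therefore missed in all 3 comparisons. The simulations changed fewer genes than the 938 called in KO against WT, so shares in the data may differ. A requirement of 80% at 2-fold, first set for all 3 comparisons, was kept only for KO minus WT after the comparison within WT missed it.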

Additional observations from a re-analysis of the deposited data

How the results depend on the processing

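Of 289 values under alternatives for 16 results, 261 stayed close to the reported value, 28 moved and 0 reversed. Close is a wide term here, and for counts it means within 1.5-fold of the reported count. It also took in the log2 fold change of Zfas1, 0.26, at 0.13 between title numbers 3 and 2 and 0.39 between 4 and 1. The cause of a move was not tested unless named. Genes called in KO against WT numbered 938, against 1613 with DESeq2 (13.7% of 11793), 551 without a filter, 274 with counts summed by title number (1.99% of 13800, on 2 sums a genotype), and 570 to 1031 with 1 clone left out, the low values being 570 without KO clone 3I, 602 without 3G and 608 without WT clone 1B. Of the 5 hosts 2 were called, against 4 with DESeq2, which added Zfas1 and Snhg15, 1 with summed counts, Gas5, and 2 to 3 with 1 clone left out, Zfas1 being added without 2F. With DESeq2 1 other noncoding host, 2 snoRNA particle proteins and 2 decay factors were called, against 0 of each. With 1 clone left out these were 0 hosts, 0 to 1 particle proteins (1 without 2D or 2E) and 0 to 2 decay factors (2 without 2D, 1 without 2E or 4L). Ribosomal protein hosts numbered 9, against 2 without a filter, 0 with summed counts and 3 to 9 with 1 clone left out. Other protein-coding hosts numbered 6, against 0 with summed counts and 5 to 8 with 1 clone left out, and other long noncoding RNAs 2, against 1 with summed counts and 2 with 1 clone left out. The log2 fold change of 2410006H16Rik, 0.54, was 0.68 between title numbers 3 and 1 and 0.41 between 4 and 2. Between title numbers 0 genes were called, against 4 within KO and 11 within WT with DESeq2; with 1 clone left out there were 0 to 6 within KO, 6 without 4J, and 0 within WT. The hosts' log2 fold changes stayed above 0 under every alternative run. The median over all genes was -0.01 with TMM, -0.01 with library totals and -0.00 with upper-quartile factors, and 50.3%, 48.5% and 53.9% of calls were higher in KO. No paired analysis was possible because the genotypes share no replicate numbers.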
